A study of Mus musculus with 3 samples.

Results

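The nonclassical monocyte-like cells of the mouse spleen were 768 of 47453 kept barcodes in 3 single-cell RNA libraries. They were chosen by RNA counts alone. A barcode was kept with more than 200 and fewer than 3500 genes detected, under 15% mitochondrial UMIs and a top hashtag of at least 3 times the next one. A UMI (unique molecular identifier) marks 1 captured RNA molecule. A kept barcode was a member with 3 or more UMIs summed over the 5 markers Ace, Ear2, Treml4, Adgre4 and Cd300e, at least 1 UMI of Cst3, a C1qa, C1qb and C1qc sum under 2, and no UMI of Cd79a or Cd3e. The levels of these genes in the members were therefore set by the choice and are given only as a description.

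Nonclassical monocytes, also called patrolling or Ly6C-low monocytes, crawl along the inner wall of small vessels and clear debris and damaged endothelium. They arise from Ly6C-high classical monocytes and depend on the nuclear receptor Nr4a1 and on C/EBP beta, the product of Cebpb. In mice they are known for low Ly6c2 and Ccr2 and high Cx3cr1, Itgal and Spn, and for the Fc receptor Fcgr4, which binds IgG in immune complexes. Ace, 1 of the 5 markers of the rule, encodes angiotensin-converting enzyme, which makes angiotensin II.

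The libraries came from splenocytes of mice aged 12 to 14 weeks, depleted of T cells with CD3 microbeads and captured with 10x Genomics 5′ chemistry, with 12000 cells targeted per well. Each library pooled 2 conditions and each condition pooled 3 mice. In the control library the conditions were C57BL/6 males with sham pumps and C57BL/6 females. In the Ang II library they were C57BL/6 mice given angiotensin II by minipump for 2 weeks, with and without 2-HOBA. In the B6.SLE123 library they were lupus-prone B6.SLE123 mice, either given 2-HOBA for 6 weeks or left without it. B6.SLE123 mice carry lupus susceptibility intervals on chromosomes 1, 4 and 7 in a C57BL/6 background, and 2-HOBA (2-hydroxybenzylamine) scavenges isolevuglandins, reactive products of lipid peroxidation. The labels tie none of the 6 hashtag antibodies, C0301 to C0306, to a condition or a mouse. The conditions within a library were thus not compared, and the cells of 1 hashtag are called a hashtag population and never a replicate. With 1 library per group no test between groups was possible. All intervals are 95% intervals that cover counting error only, and a difference between libraries cannot be told apart from library, sex or batch. The sexes did differ between libraries: Xist, the transcript of the inactive X, had a UMI in 23.7% of control members, 0 of 140 Ang II members and 34.8% of B6.SLE123 members.

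The windows around the starts of the 5 marker genes are shown because those genes define the cells, with matches to motifs of factors that nonclassical monocytes need in capitals. Each runs from 250 bases before to 50 bases after the start (RefSeq, GRCm38.p6), on the strand of the gene and 5′ to 3′.
Ace, chr11:105967698-105967997, plus strand: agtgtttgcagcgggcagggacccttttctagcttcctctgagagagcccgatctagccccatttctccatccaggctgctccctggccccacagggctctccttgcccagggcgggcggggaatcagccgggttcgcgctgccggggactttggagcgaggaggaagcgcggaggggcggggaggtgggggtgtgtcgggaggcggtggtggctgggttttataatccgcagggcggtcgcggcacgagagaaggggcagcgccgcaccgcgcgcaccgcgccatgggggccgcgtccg
Ear2, chr14:44102404-44102703, plus strand: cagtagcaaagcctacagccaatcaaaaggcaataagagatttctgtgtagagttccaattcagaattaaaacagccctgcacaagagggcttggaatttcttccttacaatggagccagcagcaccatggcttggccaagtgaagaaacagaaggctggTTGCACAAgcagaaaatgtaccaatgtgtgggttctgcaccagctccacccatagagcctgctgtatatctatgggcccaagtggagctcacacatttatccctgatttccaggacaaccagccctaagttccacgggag
Treml4, chr17:48264045-48264344, plus strand: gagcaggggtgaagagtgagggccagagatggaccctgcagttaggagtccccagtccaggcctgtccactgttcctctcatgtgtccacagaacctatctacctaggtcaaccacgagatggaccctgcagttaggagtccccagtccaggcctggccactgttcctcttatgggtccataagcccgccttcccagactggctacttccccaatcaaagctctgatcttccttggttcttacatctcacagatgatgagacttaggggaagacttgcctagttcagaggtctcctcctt
Adgre4, chr17:55749734-55750033, plus strand: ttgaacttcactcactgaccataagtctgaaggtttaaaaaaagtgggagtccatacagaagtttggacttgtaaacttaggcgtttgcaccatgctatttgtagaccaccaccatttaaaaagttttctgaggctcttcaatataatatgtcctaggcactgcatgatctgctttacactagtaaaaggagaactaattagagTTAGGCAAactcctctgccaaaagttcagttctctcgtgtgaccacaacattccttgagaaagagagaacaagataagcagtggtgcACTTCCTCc
Cd300e, chr11:115061990-115062289, minus strand: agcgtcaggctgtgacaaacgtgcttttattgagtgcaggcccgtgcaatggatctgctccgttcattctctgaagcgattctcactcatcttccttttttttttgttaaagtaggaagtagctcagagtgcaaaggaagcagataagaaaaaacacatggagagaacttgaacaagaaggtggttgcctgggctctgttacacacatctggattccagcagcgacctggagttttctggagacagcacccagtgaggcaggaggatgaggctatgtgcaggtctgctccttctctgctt

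Both strands were searched for AAAGGTCA, the element bound by NR4A factors, for TTGCNNAA, a C/EBP site, and for GAGGAAGT, a site of the myeloid factor PU.1. Ear2 held a C/EBP match at -90 to -83 from its start. Adgre4 held a C/EBP match at -46 to -39 and a PU.1 match at 41 to 48, both on the opposite strand. The NR4A element was in none of the 5 windows. Of 32851 such windows over all genes, 1.51% held the NR4A element, 10.8% the C/EBP site and 3.20% the PU.1 site, and these matches are letters in a window and no measure of binding.

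Several genes outside the rule matched the name, while Cx3cr1, given below, did not set the members apart in each library. In the members without granulocyte genes, described below, Nr4a1 was detected in 63.3%, 73.7% and 49.2% (here and below in the order control, Ang II, B6.SLE123), against 28.7%, 31.3% and 20.9% of classical monocyte-like cells. Cebpb was detected in 93.2%, 87.3% and 92.8%, Csf1r, the receptor for the monocyte growth factor CSF1, in 84.6%, 87.3% and 73.9%, and Gngt2, a G protein gamma subunit, in 94.6%, 94.9% and 95.8%. Cebpb and Csf1r set the members less apart from classical monocyte-like cells than Nr4a1 did, by the ratios given below. Several defining genes of other cell types were at or near 0, and others were not. The red pulp macrophage gene Cd5l, the T cell gene Trac, the NK cell gene Ncr1 and the platelet gene Pf4 had no UMI in any member, and Vcam1 had 1 UMI in 1 B6.SLE123 member. Summed over whole marker lists and all members, however, B cell genes had 146, 117 and 623 UMIs. T and NK cell genes had 3, 9 and 50, and erythroid and platelet genes 2, 6 and 320. These lists were thus highest in the B6.SLE123 members. The dendritic cell list, with antigen presentation genes such as H2-Aa and Cd74, was far larger, at 9429, 9853 and 7339 UMIs, and lowest in the B6.SLE123 members. The part of all these lists in the results was not tested. The B cell gene Ms4a1, which encodes CD20, was in 2.26%, 3.39% and 3.61% of these members. The dendritic cell gene Flt3 was in 2.71%, 11.9% and 1.39%, so it was most frequent in the Ang II library, the most deeply read one. Ly6c2, low in nonclassical monocytes, was in 20.8%, 21.2% and 11.9%.

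**Figure D1:**
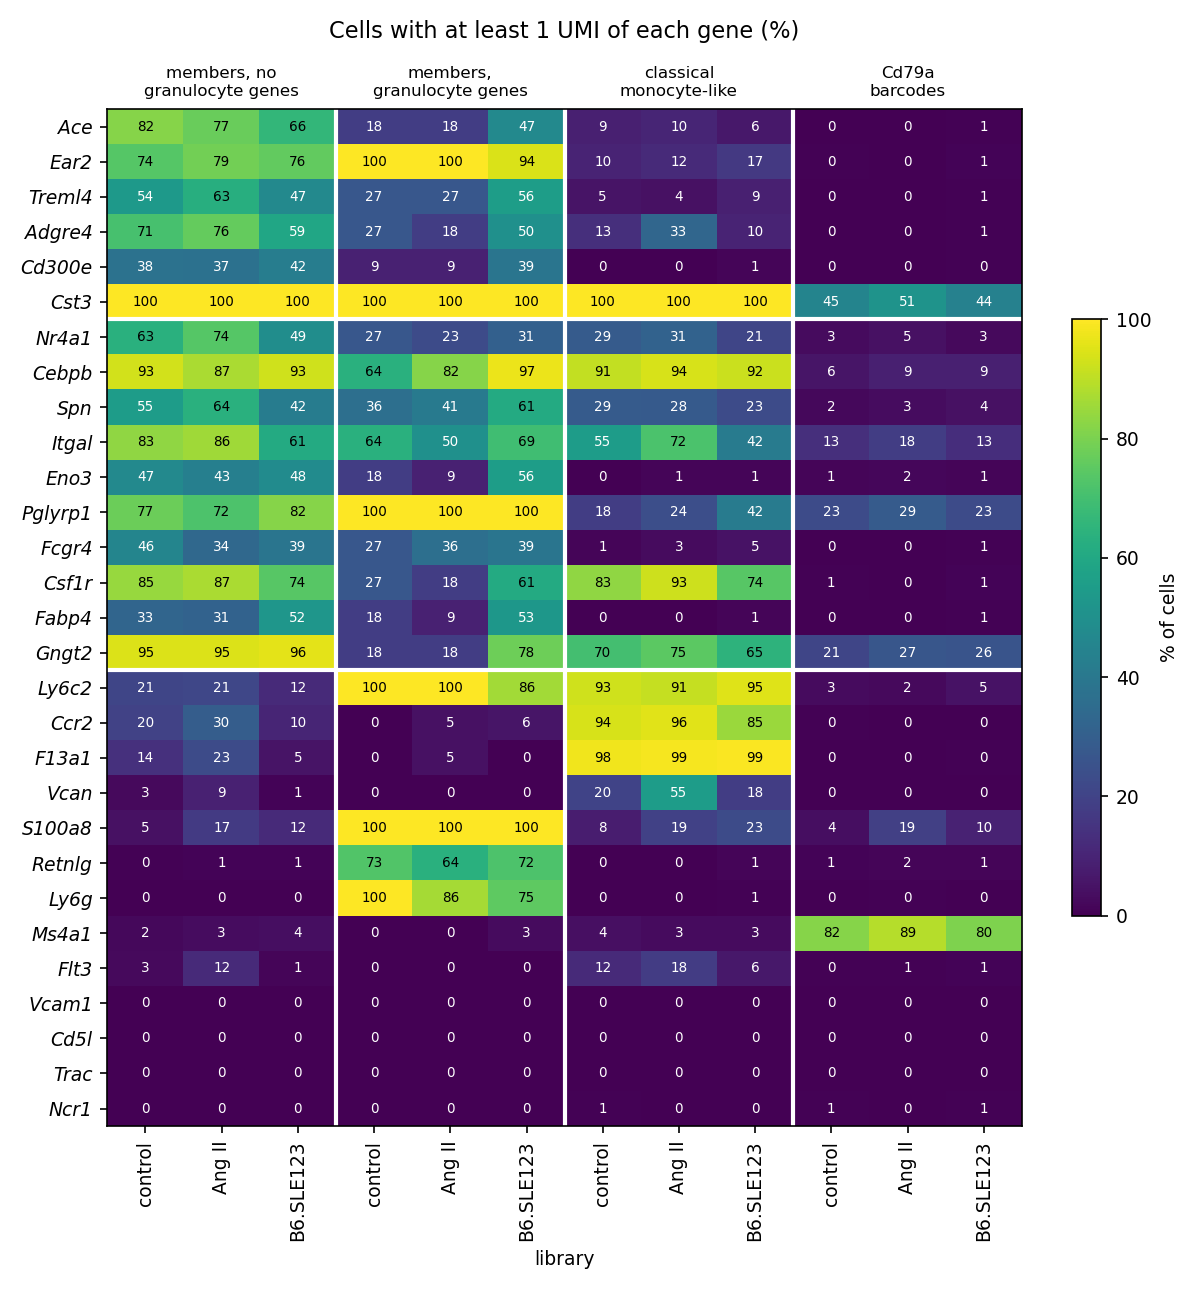
The heat map gives the percentage of cells with at least 1 UMI of each gene (rows) in each of the 3 libraries (columns), for members without and with granulocyte genes, classical monocyte-like cells and Cd79a barcodes; white lines set off the rule genes at the top and the markers of other cell types at the bottom. Ly6g was detected in most members with granulocyte genes and in at most 0.278% of the others, and Gngt2 was detected in 94.6% to 95.8% of the others.

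A minority of members carried large amounts of granulocyte RNA. Members with 5% or more of their UMIs in Ngp, Camp, Ltf, Lcn2, S100a8, S100a9 and Chil3, genes of maturing neutrophils, were 11 of 232 in the control library (4.74%), 22 of 140 in the Ang II library (15.7%) and 36 of 396 in the B6.SLE123 library (9.09%). The median share in them was 48.5%, 47.8% and 32.6%. The highest share under the limit was 2.92%, 0.459% and 4.68% and the lowest over it 6.74%, 30.3% and 5.11%, so the gap was wide in the Ang II library and narrow in the B6.SLE123 library. The limit was chosen after the values were seen. They were deep barcodes, with a median of 6870, 12666 and 6056.5 UMIs against 2453, 4348.5 and 1660.5 in the other members. Ly6g, the neutrophil surface antigen, had a UMI in 100%, 86.4% and 75% of them. Ear2 was their only detected marker in 7, 16 and 8 of them. They held 10.8%, 34.1% and 23.6% of all member UMIs, so the counts of 2-fold genes and the main gene ratios below are given with and without them. The shares of members below, and the ratios of these shares, count them as members unless said otherwise. In the B6.SLE123 library 29 of the 36 were in hashtag population C0303. Which cells these barcodes hold, and whether 1 or 2 cells lie under each barcode, was not tested.

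**Figure D2:**
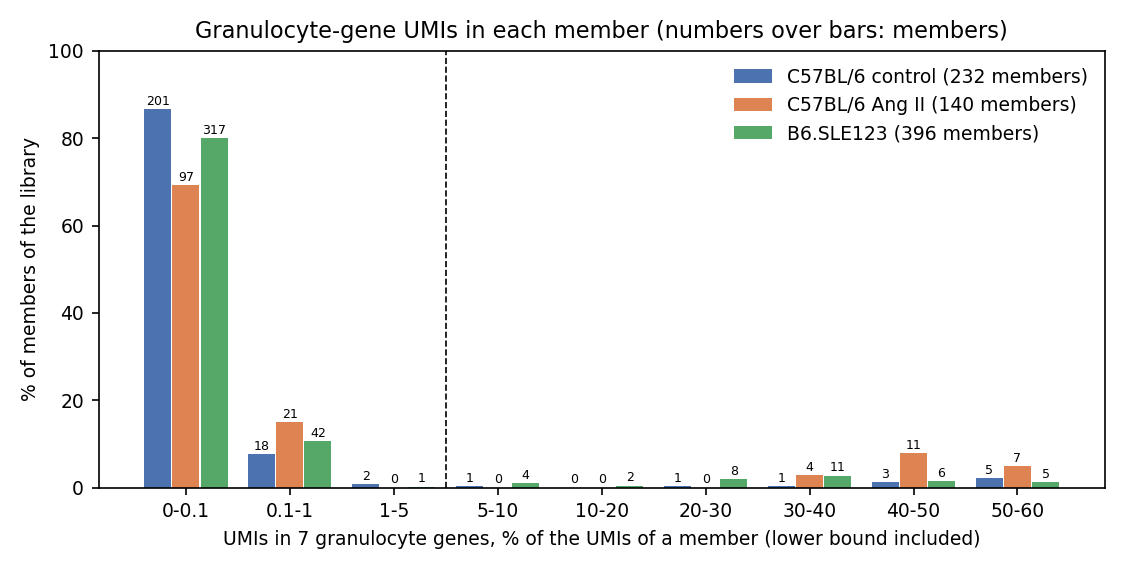
The bars give, for each library, the percentage of members (vertical axis) by the share of their UMIs in the 7 granulocyte genes (horizontal axis), with the number of members over each bar and a dashed line at 5%. Most members were under 0.1% (86.6%, 69.3% and 80.1% of them), few lay between 1% and 10%, and a second set lay above 20%.

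The rule markers varied among members. Summed marker UMIs had a median of 6 in control, 7 in Ang II and 5 in B6.SLE123 members and reached 36, 26 and 19. All 5 markers were seen together in 27, 22 and 26 members, and 1 marker alone in 21, 27 and 31. Ace was at 780 CPM (a gene's part of all UMIs of the summed members, per 1000000) in control, 365 in Ang II and 522 in B6.SLE123 members. Ear2, a ribonuclease of the eosinophil-associated family with close paralogs between which reads can be split, was at 710, 440 and 790 CPM. Treml4, a receptor that binds dead cells, was at 257, 177 and 299 CPM, Adgre4, an adhesion G protein-coupled receptor, at 412, 239 and 386 CPM, and Cd300e, an activating immune receptor, at 160, 105 and 244 CPM. The level of Ace was thus lower than that of Ear2 in the Ang II and B6.SLE123 members, on a scale that is not corrected for length.

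At the marker threshold, members with a sum of 3 numbered 42, 27 and 101, and barcodes with a sum of 2 that met the rest of the rule numbered 60, 47 and 116. The median depth was 4501, 7904 and 1595 UMIs just inside and 3796, 7615 and 1498.5 UMIs just outside. The C1q limit set aside 5, 7 and 85 barcodes that met the rest of the rule. Barcodes with 2 or more Cd79a UMIs, which should lack the markers, held any of them in 0.708%, 0.489% and 1.54% of cases at a median of 1826, 2818 and 2067 UMIs. Of these barcodes 44, 15 and 103 reached a marker sum of 3. Barcodes that met the rest of the rule but held a Cd79a UMI numbered 63, 35 and 124, beside 232, 140 and 396 members. When each barcode was thinned to 1000 UMIs before the rule was applied, 134, 56 and 202 members were left, with 1388, 898 and 2180 kept barcodes too shallow to be used.

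Members were more frequent in the B6.SLE123 library than in the control library and less frequent in the Ang II library. They were 232 of 15957 kept barcodes in the control library (1.45%, exact interval 1.27% to 1.65%), 140 of 13982 in the Ang II library (1.0%, 0.843% to 1.18%) and 396 of 17514 in the B6.SLE123 library (2.26%, 2.05% to 2.49%). On the log2 scale the B6.SLE123 share lay 0.64 (0.40 to 0.88) above that of the control, and the ratio for Ang II was -0.54 (-0.85 to -0.23). The order of depth was another: members had a median of 2542.5 UMIs in the control, 5206.5 in the Ang II and 1783 in the B6.SLE123 library. Among myeloid barcodes, those with 2 or more Cst3 UMIs and no Cd79a or Cd3e, members were 22.6%, 16.9% and 24.3%, and the B6.SLE123 ratio was then 0.10 (-0.13 to 0.35). All these shares count the 11, 22 and 36 members with granulocyte genes. A share does not give the number of cells per spleen.

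The B6.SLE123 difference rested on 1 hashtag population. The share of members per hashtag population ran from 0.473% to 2.21% in the control library (median 1.24%), from 0.545% to 1.64% in the Ang II library (median 0.978%) and from 0.881% to 5.51% in the B6.SLE123 library (median 1.90%). The highest value was C0303, with 182 of the 396 members. Without it the B6.SLE123 share was 1.51% and its log2 ratio to control was 0.051. The ranges of the 6 hashtag populations overlapped between all pairs of libraries. The Ang II ratio stayed between -0.76 and -0.35 when each hashtag population was left out in turn. Classical monocyte-like cells, chosen by Ly6c2, Ccr2, F13a1 and Vcan, were 0.940%, 0.479% and 0.794% of kept barcodes. Members outnumbered them in each of the 3 libraries by these rules. A barcode with 3 or more marker UMIs could not count as classical, while a member could hold Ly6c2, so this order depends on the rules.

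**Figure D3:**
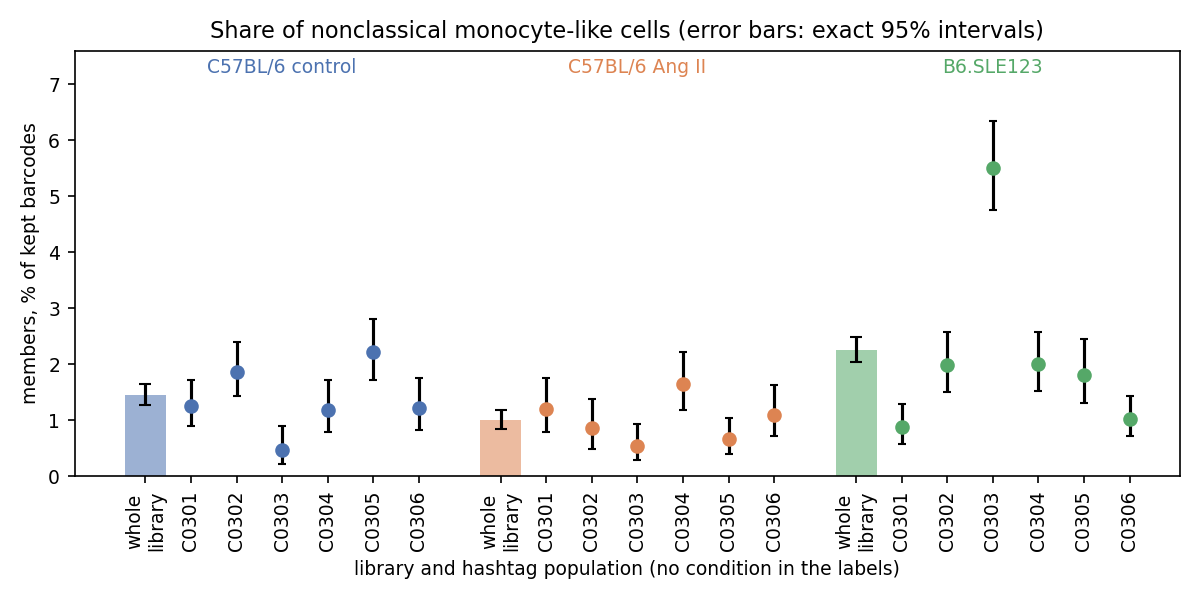
Bars give the members as a percentage of kept barcodes in each whole library, and points give the same in each of the 6 hashtag populations, which carry no condition in the labels; error bars are exact 95% intervals. In the B6.SLE123 library C0303 stood at 5.51%, and the other points of all 3 libraries lay at or under 2.21%.

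Compared with the classical monocyte-like cells of the same library, the members held more Eno3, Fcgr4, Bcl2a1 and Fabp4 RNA and less Fn1 RNA. With the members that held granulocyte genes left out, 88 of 3039 genes (2.9% of those with enough UMIs in each library) were at least 2-fold higher in 3 of 3 libraries and 43 (1.41%) at least 2-fold lower; with all members the shares were 2.22% and 1.57% of 3378 genes. These cells were split by their RNA, so the ratios describe the 2 sets and test nothing. Eno3, muscle-type enolase, was at 343, 191 and 392 CPM in the members and at 0, 2.07 and 2.80 CPM in the classical cells. Fcgr4 was at 266, 106 and 369 CPM against 2.83, 4.13 and 11.2 CPM. The paralogs Bcl2a1a, Bcl2a1b and Bcl2a1d, which encode BCL2-family survival proteins and can share reads, were among the 10 genes of this direction, together with Cd300ld3, Slc12a2 (an ion cotransporter) and Dusp16 (a MAP kinase phosphatase). So were Fabp4, a fatty acid carrier, and Cd36, a scavenger receptor for oxidized lipids.

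Of the known regulators and surface genes of nonclassical monocytes, Nr4a1, Spn and Itgal were more than 2-fold higher in the members without granulocyte genes, while Cx3cr1 and Klf2 were not in each library. The log2 ratio of Nr4a1 to the classical cells was 2.36, 2.68 and 2.46 in the 3 libraries, that of Spn, which encodes CD43, 1.93, 2.51 and 2.27, and that of Itgal, the LFA-1 integrin alpha chain, 2.08, 1.97 and 2.33. Cebpb was less far apart, at 0.94, 0.66 and 0.98, as was Csf1r, at 0.79, 0.51 and 0.99. Klf2, a factor of quiescent migrating leukocytes, was at 0.48, 0.08 and 0.54, the Ang II value with an interval (-0.11 to 0.28) that includes 0. Cx3cr1, the fractalkine receptor, had ratios of 0.76, 0.34 and 1.56. Its Ang II interval (-0.04 to 0.72) includes 0, and with all members the Ang II ratio was -0.21. In the other direction, Fn1, fibronectin, was at 304, 362 and 138 CPM in members and 1910, 2122 and 1095 CPM in classical cells. Lyz2, lysozyme, was lower by 1.06, 1.06 and 1.45 on the log2 scale. The antigen presentation genes H2-Aa and Cd74 were higher in the members, by 0.71, 1.90 and 1.49 and by 0.89, 1.49 and 1.14.

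A second Fcgr4 population was seen in the B6.SLE123 library alone. Cells with 3 or more C1q UMIs and Fcgr4 numbered 110 there, 101 of them in C0303. They were 0 of 15957 control and 0 of 13982 Ang II barcodes, with exact intervals that reach 0.0231% and 0.0264%. Against these cells, and with all members counted, 383 of 3716 genes (10.3%) were at least 2-fold higher in the members and 232 (6.24%) lower. Members held 8108 CPM of Lyz2 against 516 in the C1q cells, 668 against 184 CPM of Csf1r, 532 against 80.7 CPM of Itgal and 491 against 6.46 CPM of Pla2g7, a phospholipase that breaks down platelet-activating factor. The C1q cells held more Wfdc17 (3338 against 505 CPM), Fcrl5 (658 against 37.8), Cd72 (1253 against 64.9) and Batf3 (397 against 29.1). Nr4a1 was at 333 CPM in members and 281 CPM in C1q cells, with a log2 ratio of 0.25 (-0.10 to 0.60) that includes 0 with all members and a ratio of 0.54 without the granulocyte members. Of the rule markers, Ace had no UMI in the 110 C1q cells, and Ear2 and Treml4 were lower there (197 against 790 and 35.5 against 299 CPM). Adgre4 was at 329 against 386 CPM, and Cd300e was higher in the C1q cells, at 471 against 244 CPM. So were Fabp4 (801 against 440 CPM) and Pecam1 (229 against 134 CPM), and Spn had a ratio of 0.21 (-0.18 to 0.61). These genes were thus not particular to the members.

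In B6.SLE123 members, compared with control members, Hpgd, Apoe, Apoc2 and Fcgr2b were lower. Of 4488 genes with 50 or more UMIs over both libraries, 50 were at least 2-fold lower (1.11%) and 113 at least 2-fold higher (2.52%), with a median log2 ratio of -0.0049. Without the members that held granulocyte genes, 41 of 4046 were lower (1.01%) and 102 higher (2.52%).

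Hpgd (chromosome 8, 56294585 to 56321043, plus strand; gene positions are GENCODE vM21, GRCm38) encodes 15-hydroxyprostaglandin dehydrogenase, which inactivates prostaglandin E2. It was at 445 CPM in control, 322 in Ang II and 7.75 in B6.SLE123 members, and 99 of 232, 63 of 140 and 6 of 396 members held a UMI. The log2 ratio of B6.SLE123 to control was -5.84 (-7.07 to -4.85), or -6.01 without the granulocyte members, and the hashtag populations did not overlap: 253 to 1086 CPM in the control and 0 to 23.4 CPM in the B6.SLE123 library. Classical monocyte-like cells showed the same, with 229, 260 and 1.40 CPM.

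Apoe (chromosome 7, 19696109 to 19699188, minus strand), the lipid carrier apolipoprotein E, was at 1320, 1089 and 39.7 CPM, and the B6.SLE123 level over the control level was -5.05 (-5.54 to -4.60) on the log2 scale, or -4.88 without the granulocyte members. It was detected in 72%, 65% and 4.80% of members, and in 56.6%, 50.4% and 2.29% after thinning to 1000 UMIs. Its control hashtag populations spanned 705 to 2458 CPM and the B6.SLE123 ones 0 to 230 CPM. Without C0303, which held 9.56 CPM, the ratio was -4.22. Apoc2, the lipoprotein lipase cofactor encoded beside it on chromosome 7 (19671579 to 19677941), was lower by 2.70 on the log2 scale, with hashtag populations at 394 to 685 CPM in the control and 40.9 to 356 CPM in the B6.SLE123 library. Apoc2 was lower in Ang II members too, at 243 CPM against 498 CPM in the control.

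Fcgr2b (chromosome 1, 170958617 to 170976547, minus strand), the inhibitory Fc gamma receptor, was the 1 gene of 5 in the Fc gamma receptor list past 2-fold. It was at 158, 144 and 22.3 CPM, with a B6.SLE123 ratio of -2.82 (-3.53 to -2.17) that was -3.24 without the granulocyte members, with control hashtag populations at 101 to 286 CPM and B6.SLE123 ones at 11.7 to 49.8 CPM. The classical cells differed less (205 against 142 CPM) and Cd79a barcodes by -0.19 on the log2 scale. The activating receptors were nearer: Fcgr4 was at 246 and 312 CPM, Fcgr3 at 217 and 131 CPM, and Fcer1g, their shared signalling chain, at 5229 and 4731 CPM. For Fcgr4 the B6.SLE123 value was carried by C0303 (487 CPM against 79.7 to 204 CPM in the other 5), and without it the log2 ratio was -0.90.

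Other genes lower in B6.SLE123 members were Napsa, an aspartic protease (-2.26, and -2.17 without the granulocyte members), Cyp4f18, which degrades leukotriene B4 (-2.19), the long noncoding RNA Gm36161 (-2.34), Arhgef37 (-2.20), Slamf7 (-2.04), Serpinb2, a protease inhibitor of monocytes (-1.74), and F13a1, the coagulation factor XIII subunit (-1.73). Of the 12 genes named in this direction by the rule on the most extreme ratios, 7 had B6.SLE123 hashtag populations all below the control ones, against 0.713% of all genes tested. Without the granulocyte members it was also 7 of 12, against 0.865%. The 12 genes were picked by ratios of sums over these same hashtag populations. An excess over all genes was thus built into the choice and is no support, here and for the counts of this kind below.

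On the higher side, Cd22 was high in B6.SLE123 members and low in the other myeloid cells measured. Cd22 (chromosome 7, 30865402 to 30880342, minus strand) encodes an inhibitory sialic acid-binding receptor known from B cells. Its level was 7.95, 12.6 and 425 CPM, and it was detected in 2.16%, 4.29% and 56.6% of members, or 0.439%, 0.719% and 36.9% of them after thinning to 1000 UMIs. Against the control, the B6.SLE123 ratio was 5.74 (4.61 to 7.19), and 5.80 without the granulocyte members. All 6 B6.SLE123 hashtag populations, at 356 to 619 CPM, lay above all control ones, at 0 to 17.6 CPM. In the same library it was at 19.6 CPM in classical cells, 12.9 in C1q cells and 222 in Cd79a barcodes, the last against 319 CPM in the control library. The other B cell genes were low in B6.SLE123 members: Cd79b at 45.6 and Ms4a1 at 14.5 CPM, against 19.9 and 6.62 CPM in control members. The immunoglobulin transcripts Ighm and Igkc were at 391 and 141 CPM against 144 and 6.62, and the part of free or B cell RNA in the Cd22 value was not tested beyond these levels.

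Several other high ratios came from few cells or from 1 hashtag population. All 602 UMIs of Prg2, an eosinophil granule protein, were in 1 member, as were 143 of 166 Hbb-bs and 117 of 121 Hba-a1 globin UMIs. Jchain, which joins IgM and IgA, had 113 UMIs in 47 members, 57 of them in 1, and none in the control, which is at least 4.79 on the log2 scale. Cd72 (64.9 against 3.97 CPM) had a ratio of 4.03 (2.42 to 6.34) that was 1.99 without C0303, and Ifitm1 (170 against 26.5 CPM), an interferon-induced membrane protein, one of 2.68 that was 0.83. Rgs1 (55.2 against 9.27 CPM), a regulator of G protein signalling, went from 2.58 to 0.93. Ube2c, a cell division gene, had 81 UMIs against 1, a ratio of 5.89 (3.37 to 11.2), and at least 1.51 without the granulocyte members. Leaving out C0303 brought the number of genes at least 2-fold higher from 113 to 47.

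Ftl1-ps1, a ferritin light chain pseudogene whose reads cannot be told from those of its parent gene with certainty, was at 74.2 and 2362 CPM (4.99), and its ratio was 4.46 in classical cells and 4.48 in Cd79a barcodes. Gm42031, a long noncoding RNA on chromosome 8, was at 13.2 and 193 CPM (3.86), and all B6.SLE123 hashtag populations were above the control ones. It was also higher in Ang II members, at 67.4 CPM, with a ratio to control of 2.60 without the granulocyte members. Cryzl2 was at 2.65 and 46.5 CPM. Siglece, a sialic acid-binding receptor that dampens myeloid activation and lies on chromosome 7 (43651070 to 43660161), was at 30.5 and 175 CPM. Its ratio was 2.53 with all members, 3.48 without the granulocyte members and 1.69 without C0303, and its B6.SLE123 hashtag populations (59.8 to 250 CPM) lay above the control ones (0 to 37.5 CPM). Of the 12 genes named in this direction, 4 had B6.SLE123 hashtag populations all above the control ones, against 0.379% of genes tested. Without the granulocyte members it was 6 of 12, against 0.692%. These genes too were picked by their ratios, so the counts only describe them.

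The chromosomes that carry the congenic intervals were counted among these genes. Immunoglobulin and T cell receptor segments, Xist, Tsix, Y-linked and rule genes were left out. Of the 159 other genes past 2-fold either way, 18 lay on chromosome 1 (11.3%, against 5.97% of all tested), 18 on chromosome 7 (11.3% against 7.51%) and 11 on chromosome 4 (6.92% against 5.63%). Without the granulocyte members, chromosome 1 held 13 of 138 (9.42% against 6.07%), chromosome 7 held 17 (12.3% against 7.49%) and chromosome 4 held 9 (6.52% against 5.65%). Apoe, Apoc2, Napsa, Cd22 and Siglece lie on chromosome 7 and Fcgr2b on chromosome 1. Whether they lie inside the congenic intervals, and whether strain differences in sequence moved their counts, was not tested.

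**Figure D4:**
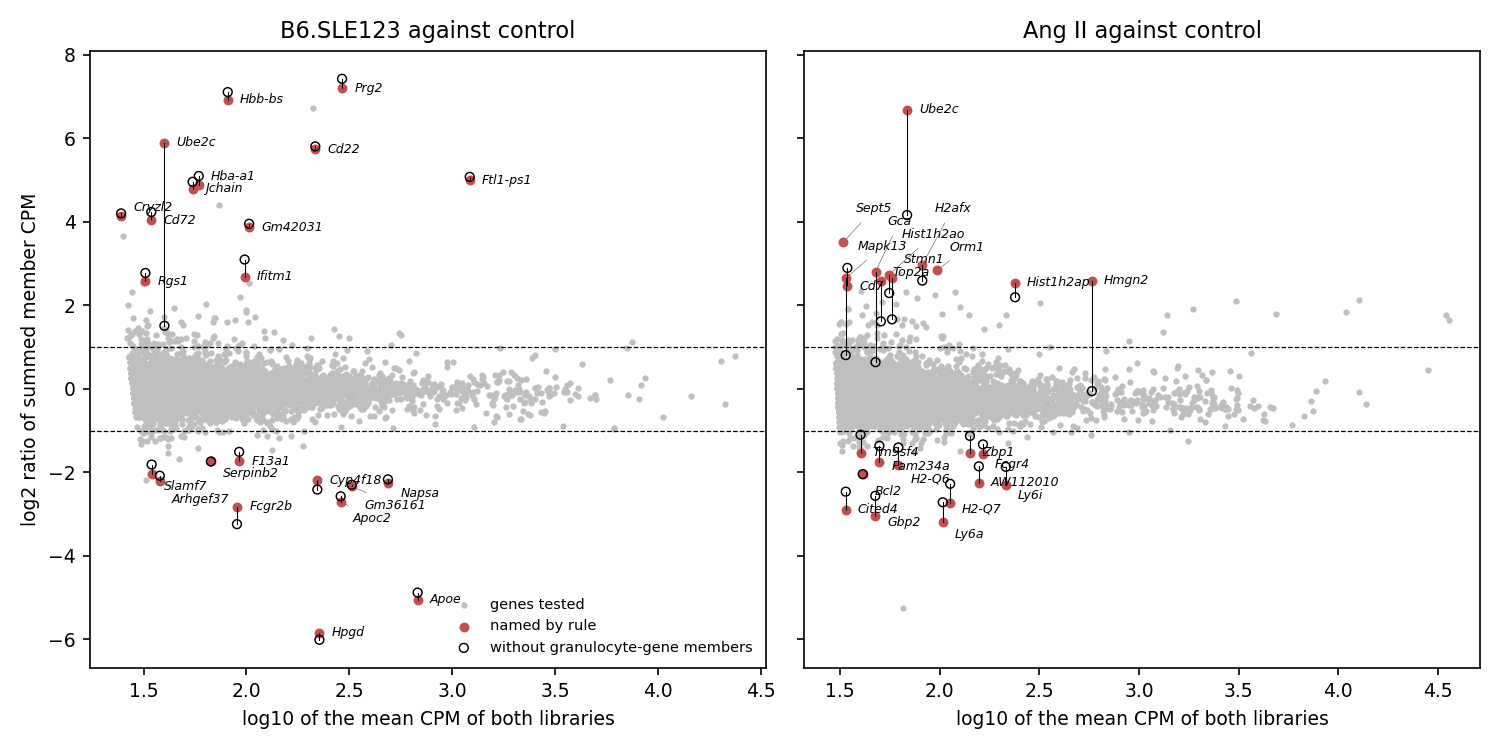
Each point is a gene with 50 or more UMIs; the horizontal axis is the log10 mean CPM of both libraries and the vertical axis the log2 ratio of the summed members, with dashed lines at 2-fold, red points for the genes named by rule and open circles for the same genes without the members that held granulocyte genes (none for Sept5 and Orm1, which were then at or under 3 UMIs in both libraries). In B6.SLE123 against control, Hpgd, Apoe and Cd22 moved little between red and open points, while in Ang II against control Hmgn2 went from 2.59 to -0.06 and Gca from 2.81 to 0.64.

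Of 10 lipid handling genes tested, 5 were at least 2-fold higher in B6.SLE123 members, against 2.52% of all genes tested, and Apoe was lower. The list median was 0.66 beside -0.0049 for all genes tested. This list and those below were chosen with earlier results of these data known, so their counts are a description and no support. Fabp4 was at 188 and 440 CPM, Fabp5, another fatty acid carrier, at 42.4 and 157, Pparg, the nuclear receptor of lipid storage, at 53.0 and 121, Nr1h3, the oxysterol receptor LXR alpha, at 17.2 and 49.4, and Lpl, lipoprotein lipase, at 15.9 and 38.8 CPM. Without C0303 the ratios of Fabp4 and Pparg were 1.04 and 1.18. The B6.SLE123 hashtag populations of Fabp4 overlapped those of the control, with the lowest at 105 CPM and the highest control one at 202 CPM. Cd36 was at 155 and 121 CPM and did not pass 2-fold.

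Of 18 nonclassical monocyte genes outside the rule, 1 was 2-fold higher (Fabp4) and none lower, with a median of -0.12. Of 9 classical monocyte genes tested, Ccr2, F13a1 and Fn1 were 2-fold lower and Cd177 higher. Pecam1, an adhesion molecule of endothelium and leukocytes, was the 1 of 12 survival and adhesion genes past 2-fold, at 42.4 and 134 CPM. None of 9 type I interferon response genes passed 2-fold either way, with a median of 0.29: Ifi27l2a was at 1232 and 1552 CPM and Irf7 at 84.7 and 126 CPM. None of 8 nucleic acid sensing genes passed, with Tlr7 at 88.7 and 69.8 CPM, and none of 6 phagocyte NADPH oxidase genes, with Cybb, its catalytic subunit, at 1308 and 1200 CPM.

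Irf8 was lower (173 and 79.5 CPM) among 6 dendritic cell genes, Cd79b, Ighm and Igkc were higher among 3 B cell genes, Hba-a1 and Hbb-bs among 2 erythroid and platelet genes, Ifitm1 among 4 Ifitm genes, Ccl5 (27.8 and 61.1 CPM) among 5 cytokine and chemokine genes, Fosb among 8 immediate early genes, C5ar1, the C5a receptor, among 4 complement genes and Retnlg among 9 neutrophil genes. Without the granulocyte members, none of Fosb, C5ar1 and Retnlg was counted as 2-fold higher, and Wfdc17 (300 and 606 CPM in these members) then was, among 4 genes of the C1q cells. None passed of 2 red pulp macrophage, 3 apoptotic cell uptake or 2 renin-angiotensin genes, and no T or NK cell gene reached 50 UMIs. Agtr1a, Agtr1b and Agtr2, the angiotensin II receptors, and Ren1, Agt and Mas1 had no UMI in the members of any of the 3 libraries.

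In Ang II members, compared with control members, the number of 2-fold genes depended on the members that held granulocyte genes. Of 4106 genes tested, 103 were at least 2-fold higher (2.51%) and 80 lower (1.95%), with a median log2 ratio of -0.18. Without those members 37 of 3558 were higher (1.04%) and 33 lower (0.927%), with a median of -0.02. S100a8 had a ratio of 1.76 with them and -1.76 without, and S100a9 one of 1.64 and -2.19. Hmgn2, a chromatin protein, went from 2.59 to -0.06, Gca, grancalcin, from 2.81 to 0.64, and Orm1, an acute phase protein, from 2.84 to no UMI at all. Mapk13 went from 2.65 to 0.81. Sept5 had a ratio of 3.51 with them, and no UMI in the Ang II and 1.48 CPM in the control members without them.

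Ube2c, H2afx, Hist1h2ap, Hist1h2ao, Top2a and Stmn1, genes of cell division or chromatin, were higher in the summed Ang II members with and without the granulocyte members. They had a UMI in 7, 21, 56, 22, 11 and 15 of the 140 Ang II members. Ube2c had 119 UMIs in 7 Ang II members against 1 in the control, a ratio of 6.68 (4.18 to 12), and 79.7 against 0 CPM without the granulocyte members, at least 4.16. H2afx, a histone of the DNA damage response, was at 145 and 18.5 CPM (2.97, then 2.59), and Hist1h2ap and Hist1h2ao, near-identical histone genes that can share reads, had ratios of 2.54 and 2.74 (2.19 and 2.29 without). Top2a and Stmn1 went from 2.57 and 2.64 to 1.61 and 1.66, and after thinning to 1000 UMIs Stmn1 had 1 UMI in Ang II and 0 in control members. Cd7, a lymphocyte surface protein with a UMI in 10 Ang II members, was at 58.2 and 10.6 CPM, a ratio of 2.46 that was 2.89 without the granulocyte members and -0.27 when 2 or more markers were asked of a member. Of the 12 genes named in this direction, 0 had Ang II hashtag populations all above the control ones, against 0.292% of genes tested, and without the granulocyte members 1 of 12 did, against 0.422%. Without the granulocyte members, Cfp, properdin, which stabilizes the complement convertase, and the class II accessory genes H2-Oa and H2-DMb2 were higher at ratios of 1.42, 1.65 and 1.61. Cxcl9, a chemokine induced by interferon gamma, was at 102 and 38.6 CPM, with 51 of the 59 Ang II UMIs in 1 member.

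Among the genes lower in Ang II members, Ly6a, Gbp2 and Zbp1 are known to be induced by interferon, and the control level of several was set largely by hashtag population C0305. Ly6a, which encodes Sca-1, was at 187 CPM in control and 20.6 CPM in Ang II members (-3.18), but at 502 CPM in control C0305 and 0 to 101 CPM in the other 5 control populations. Without C0305 its ratio was -0.92. Gbp2, a guanylate-binding protein, had a ratio of -3.04 that was -1.85 without C0305, AW112010, a noncoding or short-peptide RNA, one of -2.24 that was -1.02, and Ly6i one of -2.31 that was -1.27. H2-Q7 and H2-Q6, class Ib histocompatibility genes that are paralogs and can share reads, went from -2.72 to -2.0 and from -1.82 to -1.04, and Zbp1, a sensor of Z-form nucleic acid, from -1.53 to -1.02. Without control C0305 the number of genes at least 2-fold lower was 49 in place of 80; without Ang II C0304, which held 42 of the 140 members, it was 132.

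Fcgr4 and Bcl2 were lower as well. Fcgr4 (chromosome 1, 171018920 to 171029761, plus strand) was at 246 CPM in control and 83.4 CPM in Ang II members, a ratio of -1.56 (-1.97 to -1.17) that was -1.33 without the granulocyte members and -1.18 without C0305. With both left out it was -0.99 (-1.48 to -0.51), under 2-fold. Its Ang II hashtag populations, at 51.1 to 109 CPM, lay below the control ones, at 113 to 400 CPM, though they overlapped without the granulocyte members. Bcl2, which opposes cell death, was at 66.2 and 16.0 CPM (-2.05), -2.04 without the granulocyte members and -2.0 without C0305. Cited4 (59.6 and 7.99 CPM), Fam234a (76.8 and 22.8 CPM) and Tm9sf4 (59.6 and 20.6 CPM) completed the 12 genes. Of the 12, 5 had Ang II hashtag populations all below the control ones, against 1.41% of genes tested, and of the 12 named without the granulocyte members 0 did, against 0.534%. As above, the choice by ratio favours such ranges, so these counts are a description.

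**Figure D5:**
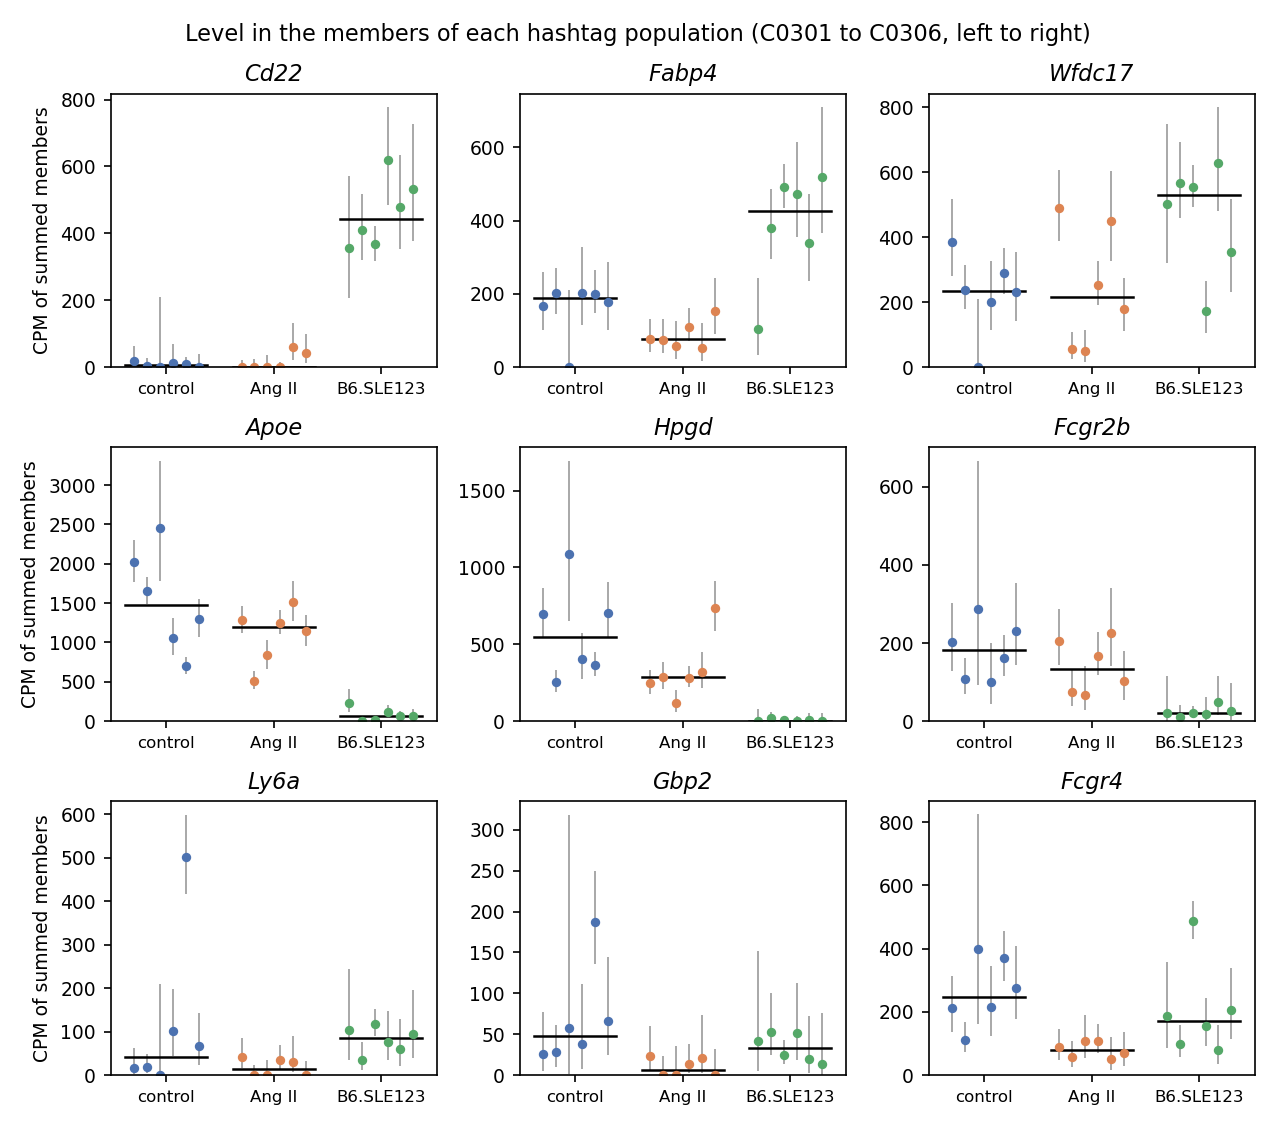
Each point is the CPM of a gene in the summed members of 1 hashtag population (C0301 to C0306 from left to right within each library), with exact 95% counting intervals and a black line at the median of the 6; the axes start at 0 and differ between genes. All B6.SLE123 points of Cd22 lay above the control points and those of Hpgd, Apoe and Fcgr2b below them, while the control level of Ly6a and Gbp2 was set by C0305.

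By gene list and without the members that held granulocyte genes, Fcgr4 was the 1 of 18 nonclassical monocyte genes outside the rule, and of 5 Fc gamma receptors, that was 2-fold lower, with a list median of -0.33; with all members Eno3, Cd36 and Fabp4 were too, and the median was -0.66. Of 9 interferon response genes Zbp1 was lower, of 11 survival and adhesion genes Bcl2, of 3 neutrophil genes S100a8 and S100a9, and of 8 classical monocyte genes Ly6c2 (-1.34). Higher were Fabp5 of 8 lipid handling, Ifitm1 of 4 Ifitm and Cfp of 3 complement genes. None passed of 7 dendritic cell, 8 nucleic acid sensing, 6 NADPH oxidase, 8 immediate early, 4 cytokine and chemokine, 4 C1q cell, 2 red pulp macrophage, 2 apoptotic cell uptake, 2 renin-angiotensin and 1 B cell genes. With all members 5 of 9 neutrophil genes, Chil3, Cd177 and C5ar1 were higher and Tlr13, Fcgr1 and Adgre1 lower. Ace itself, a rule gene, was at 860 and 525 CPM without the granulocyte members, and Apoe, Hpgd and Fcgr2b, which were low in B6.SLE123 members, were within 2-fold of the control level.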

How the data were processed

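Splenocytes of 3 pooled libraries were read by 10x 5′ single-cell RNA sequencing with hashtag antibodies. The values are raw UMI counts per gene and barcode as deposited, which the authors made by running Cell Ranger (version 6.0.0 in the file headers) on mm10 per the submitters' processing notes, and not normalized or pooled after counting. Barcodes were kept by the limits given above; doublets within 1 hashtag cannot be seen. UMIs of the members were summed per library and divided by their total (CPM), and genes with 50 or more UMIs over both libraries were compared. With 1 library per group no test between groups was run: 2-fold is a rule of size. Shares have exact Clopper-Pearson, CPM exact Poisson and ratios exact conditional intervals at 95%. A gene at 0 was set to 3 counts and its ratio written as at least. The members and the 21 gene lists (201 genes) were chosen with earlier results of these data known.

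Named genes were the 12 highest and 12 lowest ratios of each contrast (10 each against classical cells, by the smallest of the 3 ratios), without immunoglobulin and T cell receptor segments, Xist, Tsix, Y-linked and rule genes, plus list and rule genes; some of these genes are not reported here. Classical monocyte-like cells had 3 or more UMIs of Ly6c2, Ccr2, F13a1 and Vcan, with F13a1 or Vcan among them, under 3 marker UMIs, no Siglech UMI and the other limits of the rule. C1q cells had Cst3 and no Spic, Vcam1, Cd5l, Cd79a or Cd3e UMI. Libraries held 18218, 16062 and 20691 barcodes and 44146350, 59043555 and 63516694 gene UMIs, and kept barcodes a median of 1792, 2771 and 1956 UMIs. Pairs of libraries shared 415, 496 and 474 barcode sequences, of which 0, 1 and 0 were members in both. GENCODE positions were matched for 32158 of 32285 genes. Python 3.11.15, numpy 2.4.6, scipy 1.17.1, pandas 2.3.3, matplotlib 3.10.9, R 4.3.3 and edgeR 4.0.16 (scaling factors only) were used, and the calculations were tested on simulated data. The alternatives were other limits of the rule, denominators, scalings, UMI minimums, thinning and leaving out each hashtag population.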

Additional observations from a re-analysis of the deposited data

Results flagged for a closer look

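In the B6.SLE123 library the members were 5.51% of kept barcodes in hashtag population C0303, and its gap to the nearest of the other 5, divided by the range of the 6, was 0.758, above the limit of Dixon's test at 95%. That limit assumes 6 draws from 1 normal population, where a gap past it arises by chance in about 1 in 20 groups. These hashtag populations came from a library of 2 conditions and are not labelled samples. The gap is thus a flag for a closer look and no test result. C0303 also held 101 of the 110 C1q cells and 29 of the 36 B6.SLE123 members with granulocyte genes.

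In the same library 85 barcodes met the rest of the rule but had 2 or more C1q UMIs and so entered no comparison of members, against 5 control and 7 Ang II barcodes. With the C1q limit removed, the B6.SLE123 share was 2.75% in place of 2.26%.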

How the results depend on the processing

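Across the alternatives, 153 of the planned values that answer a comparison stayed within the set margin and 61 moved, and of those added after the data were seen 29 stayed and 11 moved. Shares are given in the order control, Ang II, B6.SLE123. Reading the barcode limits as UMIs gave shares of 1.12% and 0.463% for control and Ang II, log2 ratios of 0.997 (B6.SLE123) and -1.28 (Ang II), 73 higher and 29 lower genes for B6.SLE123 and 16 and 43 for Ang II. Thinning to 1000 UMIs gave 0.920%, 0.428% and 1.32%, an Ang II ratio of -1.10, 36 and 23 genes for B6.SLE123, 8 and 13 for Ang II, and 13 and 17 against classical cells. A marker sum of 2 or more gave 1.83%, 1.34% and 2.92% and 155 lower Ang II genes; one of 5 or more gave 1.04%, 0.665% and 1.27%, a B6.SLE123 ratio of 0.29 and 43 and 38 Ang II genes. Without Ace in the sum the control and B6.SLE123 shares were 1.15% and 1.80%, without Ear2 the shares were 1.17%, 0.765% and 1.59%, and the B6.SLE123 share was 1.93% without Adgre4 and 2.03% without Cd300e. With no C1q limit it was 2.75%, with a ratio of 0.89 and 192 higher genes. Of myeloid barcodes the shares were 22.6%, 16.9% and 24.3%, with a B6.SLE123 ratio of 0.10. Lower Ang II genes numbered 39 with median-of-ratios and 38 with TMM scaling. At 20 UMIs the counts were 324 and 169 (B6.SLE123) and 304 and 263 (Ang II), and at 100 UMIs 55 and 21, and 48 and 42.

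Leaving out each hashtag population in turn gave shares of 1.28% to 1.59%, 0.858% to 1.10% and 1.51% to 2.55%, ratios of 0.051 to 0.82 (B6.SLE123) and -0.76 to -0.35 (Ang II), 47 to 120 higher and 43 to 60 lower B6.SLE123 genes, and 68 to 123 higher and 49 to 132 lower Ang II genes; without Ang II C0302 the last were 68 and 52. Added after the data were seen: without granulocyte members the Ang II counts were 37 and 33, with no upper gene limit 156 were higher, and with 2 or more markers detected the Ang II share was 0.808% and the counts 46 and 35. With neither granulocyte members nor C0303 the B6.SLE123 share was 1.46%, its ratio 0.073 and its higher genes 46. Some single genes changed sign in their computed ratio. In B6.SLE123 this was Ube2c (-1.27 with UMI limits, -1.18 thinned). In Ang II it was Hmgn2 (-0.40 with UMI limits, -0.48 thinned, -0.055 without granulocyte members) and Cd7 (-0.27 with 2 markers). Stmn1 in Ang II stood at -0.33 thinned, with 1 UMI in Ang II and none in control members. That value came from the 3 counts set for a gene at 0 and is no reversal. Ube2c had 1 UMI over all control members, so its negative values rest on counts near 0. The cause of the sign changes was not tested. No paired analysis was possible because each group is 1 library and the hashtags carry no condition.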
